A study of Mus musculus with 8 samples.

Results

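The genes described here are the EGF receptor gene Egfr, the genes of 5 ligands of that receptor (Areg, Ereg, Hbegf, Tgfa and Btc) and the genes of 4 inhibitors that its signaling induces (Errfi1, Dusp6, Spry2 and Spry4). They were chosen by gene name from the deposited table of raw counts, before any filter, and make up 10 of its 56748 genes. All 10 passed the filter on low counts, which kept 14279 genes for testing. RNA was sequenced from mouse primary hepatocytes cultured for 24 h on collagen-coated polyacrylamide hydrogels of 1 kPa (soft) or 20 kPa (stiff), with 2 libraries in each of 4 groups. All mice were C57BL/6J animals of 7 to 8 weeks carrying floxed alleles of Yap and Taz (Yap fl/fl; Taz fl/fl). The knockout groups received AAV8-TBG-Cre and the wild-type (WT) groups received AAV8-TBG-Null, and cells were isolated after 10 days. The paper places the age of 7 or 8 weeks at the virus injection. It also describes a tdTomato reporter allele in this line, which Cre switches on. The TBG promoter drives Cre in hepatocytes, so other liver cells carried into the culture keep both genes. The submitters' labels do not say whether replicate libraries came from separate mice, so the p-values measure only the spread between these libraries, which may be technical.

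The EGF receptor is a tyrosine kinase of the cell surface that is abundant in hepatocytes and is known for its part in liver regeneration. Its ligands are made as membrane-bound precursors and are released by metalloproteases such as ADAM17. The activated receptor signals through RAS, RAF, MEK and ERK. ERK then induces inhibitors that act back on the pathway. ERRFI1 (also called MIG6) binds and inhibits the kinase domain of the receptor, DUSP6 dephosphorylates ERK, and the Sprouty proteins SPRY2 and SPRY4 restrain signaling between the receptor and ERK. YAP and TAZ are transcriptional coactivators that bind DNA through TEAD proteins, and Areg is known as a YAP target in other epithelial cells.

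Library totals ran from 18324083 to 26442310 counts, in which 3 counts, as many as a reading of 0 can hide at 95% confidence, made up 0.116 to 0.167 CPM (counts per 1e+06 counts, after scaling). This limit covers counting error only. Yap1 had 1720 to 2913 counts in the wild-type libraries and 606 to 747 in the knockout libraries, and Wwtr1, the gene of TAZ, had 748 to 1325 and 277 to 410. Neither gene overlapped between the genotypes, and both were still counted in every knockout library. The submitters' sources disagree on the sex of the mice, female in the design text and male in the protocols. Xist had 4818 to 8443 counts in every library, while the Y-linked genes Ddx3y, Kdm5d, Eif2s3y and Uty had a count of 0 in all 8.

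The promoters of Areg, Btc and Errfi1 are shown because these genes gave the largest differences between the hydrogels in wild-type cells among the 10. Each sequence is the 250 bases before a transcription start site in RefSeq (GRCm38.p6), 5′ to 3′ on the strand of the gene, and capitals mark a match to a searched motif. The Areg sequence is chr5:91139349-91139598 on the plus strand, the Btc sequence is chr5:91402995-91403244 on the minus strand, and the Errfi1 sequence is chr4:150853546-150853795 on the plus strand.
Areg: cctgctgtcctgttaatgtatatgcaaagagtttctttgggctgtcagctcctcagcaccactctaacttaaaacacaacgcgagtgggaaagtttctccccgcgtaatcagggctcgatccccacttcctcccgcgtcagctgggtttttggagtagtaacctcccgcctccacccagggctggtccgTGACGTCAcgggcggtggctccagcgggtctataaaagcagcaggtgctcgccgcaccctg
Btc: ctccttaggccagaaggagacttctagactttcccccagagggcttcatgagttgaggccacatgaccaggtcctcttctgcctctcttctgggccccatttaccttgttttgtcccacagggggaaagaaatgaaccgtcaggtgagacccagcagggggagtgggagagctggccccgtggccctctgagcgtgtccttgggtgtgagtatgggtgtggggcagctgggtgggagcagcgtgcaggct
Errfi1: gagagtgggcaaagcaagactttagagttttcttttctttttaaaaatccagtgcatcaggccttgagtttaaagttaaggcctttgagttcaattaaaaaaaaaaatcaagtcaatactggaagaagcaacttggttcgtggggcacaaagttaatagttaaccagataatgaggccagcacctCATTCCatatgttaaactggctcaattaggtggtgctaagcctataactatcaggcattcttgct
The TEAD motif GGAATG, the AP-1 motif TGANTCA and the cAMP response element (CRE) TGACGTCA were searched on both strands in windows of 300 bases, from 250 before to 50 after the start site. RefSeq entries were at hand for 7 of the 10 genes. The Areg window held the CRE at bases -61 to -54 from the start site. The Errfi1 window held the TEAD motif, on the reverse strand, at bases -65 to -60. The window of another RefSeq start of Errfi1, not shown, held the CRE at bases -51 to -44 and no TEAD motif. None of the 3 motifs was in the windows of Egfr, Tgfa, Btc, Dusp6 or Spry2. Among all 32851 promoter windows, 14.7% held the TEAD motif, 7.81% the AP-1 motif and 1.79% the CRE. A match describes these letters and is not a measurement of binding.

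Positions of the genes are those of the deposited table, whose build is not settled here, since the submitters' notes name mm9 and the positions differ from those of GRCm38. Egfr (ENSMUSG00000020122) lies on chromosome 11 from 16702203 to 16868158, plus strand. Ereg (ENSMUSG00000029377, 91222481 to 91241505, plus strand), Areg (ENSMUSG00000029378, 91287458 to 91296291, plus strand) and Btc (ENSMUSG00000082361, 91505120 to 91550853, minus strand) lie within 328 kb of each other on chromosome 5. Tgfa (ENSMUSG00000029999) lies on chromosome 6 from 86172205 to 86252701, and Hbegf (ENSMUSG00000024486) on chromosome 18 from 36637980 to 36648858. Errfi1 (ENSMUSG00000028967) lies on chromosome 4 from 150938376 to 150953349, and Dusp6 (ENSMUSG00000019960) on chromosome 10 from 99099093 to 99103351. Spry2 (ENSMUSG00000022114) lies on chromosome 14 from 106129381 to 106134253, and Spry4 (ENSMUSG00000024427) on chromosome 18 from 38719300 to 38734468. Egfr overlaps Egfros, a gene of the opposite strand with 47 counts per library on average, and no other gene overlapping a member had a mean above 1 count.

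Divided by gene length, Errfi1 had the highest level of the 10 genes in every group and Ereg the lowest. In wild-type cells on the soft hydrogel the mean level of Errfi1 was 87.3 CPM per kb. Dusp6 (22.2), Areg (19.7), Btc (15.1), Egfr (13.9) and Tgfa (11.8) followed, with no overlap between neighbours at these gene lengths. The deposited length exceeds the longest annotated transcript for Tgfa (6490 against 4527 bases) and not for Areg (1215 in both). The order of genes at close levels therefore depends on the length used. Hbegf was at 3.67, Spry4 at 1.04, Spry2 at 0.551 and Ereg at 0.322 CPM per kb. On the stiff hydrogel the wild-type order became Errfi1 (134), Dusp6 (22.9), Egfr (15.5), Areg (10.5), Tgfa (8.12), Btc (5.94) and Hbegf (4.33), so the receptor stood above each of its ligands there. In the knockout cells Egfr was at 10.5 CPM per kb on both hydrogels, below Areg, Btc and Tgfa. Areg and Btc could not be ordered in either knockout group, since their libraries overlapped (18.7 to 20.0 and 18.6 to 19.3 CPM per kb on soft, 17.2 to 18.3 and 18.1 to 18.2 on stiff).

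**Figure D1:**
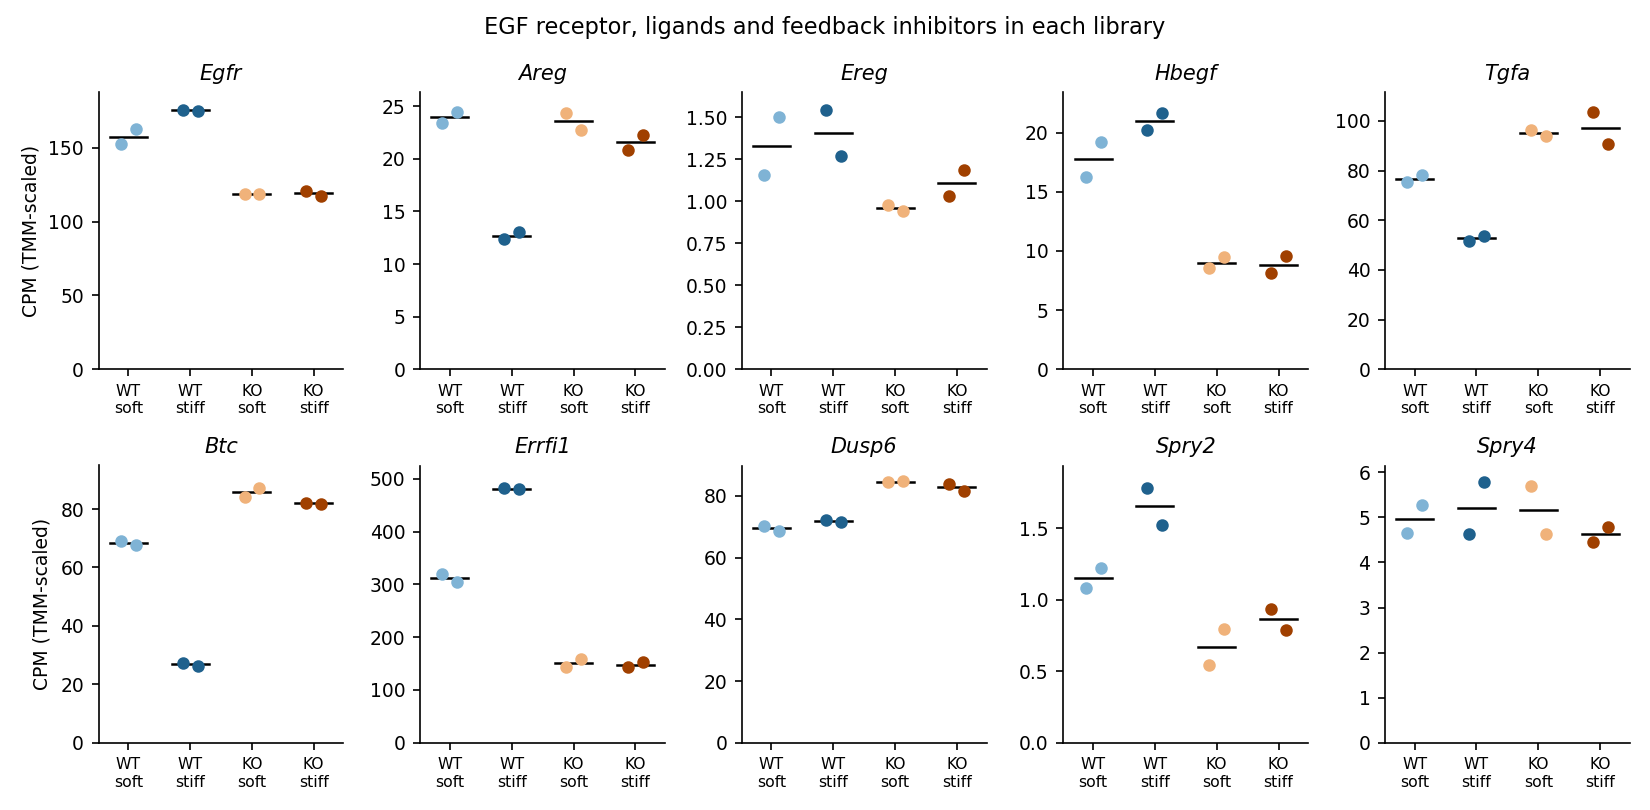
Normalized level of each of the 10 genes in CPM (vertical axes, each starting at 0) in the 4 groups, with points for the 2 libraries of a group and a bar for their mean. Btc, Areg and Tgfa sat lowest in wild-type cells on the stiff hydrogel, where Errfi1 reached 480 to 483 CPM, and the knockout groups lay close to each other for these 4 genes.

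In wild-type hepatocytes, 3 of the 5 ligand genes (Btc, Areg and Tgfa) fell on the stiff hydrogel and the inhibitor gene Errfi1 rose, while none of these genes was called changed in the knockout cells. Of all 14279 genes, 19.3% changed in wild-type cells, 10.0% rising and 9.26% falling, against 4 of the 10 genes here, 1 rising and 3 falling. In the knockout cells 0 of the 10 genes changed by edgeR's quasi-likelihood test and 0 by DESeq2, and 0 had an unadjusted p under 0.05. Of all genes, 3, or 0.0210%, changed there and 1077 had an unadjusted p under 0.05. Calls needed both an absolute log2 fold change over 0.5 and a Benjamini-Hochberg adjusted p under 0.05. Over the 10 genes the log2 fold changes had a median of 0.09 in wild-type and -0.02 in knockout cells, beside -0.0087 and 0.0076 over all tested genes. In wild-type cells the 5 ligands had a median of -0.54, with Hbegf and Ereg above 0, and the 4 inhibitors, of which 1 was called, a median of 0.30.

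Egfr, the receptor, was read at 152 and 163 CPM in the wild-type libraries on soft, and at 176 and 175 on stiff. It was at 118 and 119 CPM in the knockout libraries on soft, and at 121 and 117 on stiff. All wild-type libraries lay above all knockout libraries, and the stiff wild-type libraries lay above the soft ones. The stiff-to-soft difference in wild-type cells was 0.16 on the log2 scale (95% interval 0.055 to 0.26, adjusted p = 0.0141 by edgeR's quasi-likelihood test), under the fold threshold. In knockout cells it was 0.0054 (interval -0.098 to 0.11), with a sign that turned under some alternatives, and the difference between the genotypes was -0.15 (adjusted p = 0.112 by edgeR). On stiff, Egfr was lower in knockout than in wild-type cells by 0.56 on the log2 scale, a 1.47-fold difference (SE 0.049, adjusted p = 1.93e-08 by edgeR's quasi-likelihood test). On soft the difference of -0.41 also passed the adjusted p (5.44e-06 by edgeR) but not the fold threshold.

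Btc encodes betacellulin, a ligand of EGFR and ERBB4. Its level was 69.1 and 67.5 CPM in wild-type cells on soft and 27.3 and 26.4 on stiff, and 84.1 and 87.3 CPM in knockout cells on soft and 82.1 and 81.8 on stiff. The stiff wild-type libraries stood below all 6 others. Btc fell 2.54-fold in wild-type cells, a log2 fold change of -1.35 (SE 0.060, adjusted p = 3.09e-12 by edgeR's quasi-likelihood test). In knockout cells the difference was -0.06 (interval -0.18 to 0.048, adjusted p = 0.797 by edgeR). The stiffness effect in knockout cells minus that in wild-type cells was 1.28 (SE 0.080, adjusted p = 8.64e-10 by edgeR), where 16.8% of all genes were called different and 8.64% in this direction. Of the 10 genes, 4 differed in that test, 3 upward and 1 downward.

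Areg encodes amphiregulin, a ligand of EGFR. It had 23.4 and 24.5 CPM in wild-type cells on soft, 12.3 and 13.1 on stiff, 24.4 and 22.8 in knockout cells on soft and 20.9 and 22.2 on stiff. As for Btc, the stiff wild-type libraries were below all others, but the soft libraries of the genotypes overlapped. Areg fell 1.88-fold in wild-type cells, a log2 fold change of -0.91 (SE 0.096, adjusted p = 4.24e-07 by edgeR's quasi-likelihood test). The knockout difference was -0.13 (interval -0.32 to 0.060, adjusted p = 0.737 by edgeR), and the effects differed by 0.78 (SE 0.13, adjusted p = 1.80e-04 by edgeR).

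Tgfa encodes transforming growth factor alpha, a ligand that hepatocytes make. It was measured at 75.4 and 78.0 CPM in wild-type cells on soft and at 51.8 and 53.6 on stiff. In knockout cells it was at 96.5 and 93.7 CPM on soft and at 104 and 90.7 on stiff. The wild-type groups did not overlap, and the knockout groups did. Tgfa fell 1.45-fold in wild-type cells, a log2 fold change of -0.54 (SE 0.064, adjusted p = 1.93e-06 by edgeR's quasi-likelihood test). The knockout difference was 0.03 (interval -0.096 to 0.16), with a sign that turned when 1 stiff knockout library was left out. The effects of stiffness differed between the genotypes by 0.57 (SE 0.088, adjusted p = 7.28e-05 by edgeR), and without replicate 1 of the stiff knockout group the difference was 0.47, under the fold threshold, with an adjusted p of 2.82e-04 by edgeR.

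Hbegf encodes heparin-binding EGF-like growth factor. Its libraries read 16.3 and 19.2 CPM in wild-type cells on soft, 20.3 and 21.6 on stiff, 8.55 and 9.45 in knockout cells on soft and 8.15 and 9.54 on stiff. Hbegf thus separated the genotypes and not the knockout hydrogels. It was 1.97-fold lower in knockout cells on soft, a log2 fold change of -0.98 (SE 0.12, adjusted p = 1.18e-05 by edgeR's quasi-likelihood test), and 2.37-fold lower on stiff, a log2 fold change of -1.24 (SE 0.12, adjusted p = 1.26e-07 by edgeR). The wild-type stiffness difference of 0.25 did not pass (interval 0.0018 to 0.49, adjusted p = 0.102 by edgeR). Ereg, the gene of epiregulin, had 19 to 32 counts per library, and its wild-type stiffness difference of 0.10 had an interval of -0.64 to 0.85, so a change of moderate size was not detectable at this depth.

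Errfi1 gave the largest differences between the genotypes among the inhibitors. It stood at 321 and 305 CPM in wild-type cells on soft and at 483 and 480 on stiff. In knockout cells it stood at 143 and 158 CPM on soft and at 143 and 152 on stiff. No library of a knockout group reached the lowest wild-type library, and the knockout groups overlapped. Errfi1 rose 1.54-fold on stiff in wild-type cells, a log2 fold change of 0.62 (SE 0.050, adjusted p = 9.81e-09 by edgeR's quasi-likelihood test). In knockout cells the difference was -0.03 (interval -0.14 to 0.082), and the effects differed by -0.65 (SE 0.072, adjusted p = 1.43e-06 by edgeR), a direction taken by 8.21% of all genes. Knockout cells had 2.08-fold less Errfi1 RNA than wild-type cells on soft (log2 fold change -1.06, adjusted p = 4.30e-11 by edgeR) and 3.27-fold less on stiff (log2 fold change -1.71, adjusted p = 5.73e-15 by edgeR).

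None of the other 3 inhibitor genes passed the thresholds in any comparison. Dusp6 ran from 68.7 to 72.3 CPM over the wild-type and from 81.6 to 84.8 over the knockout libraries, without overlap between the genotypes. Its genotype difference was 0.28 on soft (adjusted p = 5.99e-04 by edgeR's quasi-likelihood test) and 0.20 on stiff (adjusted p = 0.00308), both under the fold threshold, and its stiffness difference in wild-type cells was 0.05 (interval -0.064 to 0.16). Dusp6 and Errfi1 therefore stood on different sides of 0 between the genotypes. Spry2 had 14 to 37 counts per library. Its level was 1.08 to 1.22 CPM in wild-type cells on soft, 1.52 to 1.78 on stiff, 0.546 to 0.796 in knockout cells on soft and 0.791 to 0.937 on stiff, with the knockout libraries below the wild-type ones. The Spry2 genotype difference on stiff was -0.93 (interval -1.74 to -0.13, adjusted p = 0.0502 by edgeR), just above the threshold, and under 4 alternatives it fell below it. Spry4 ran from 4.45 to 5.79 CPM over all 8 libraries with overlap between all groups, and none of its differences passed the test.

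**Figure D2:**
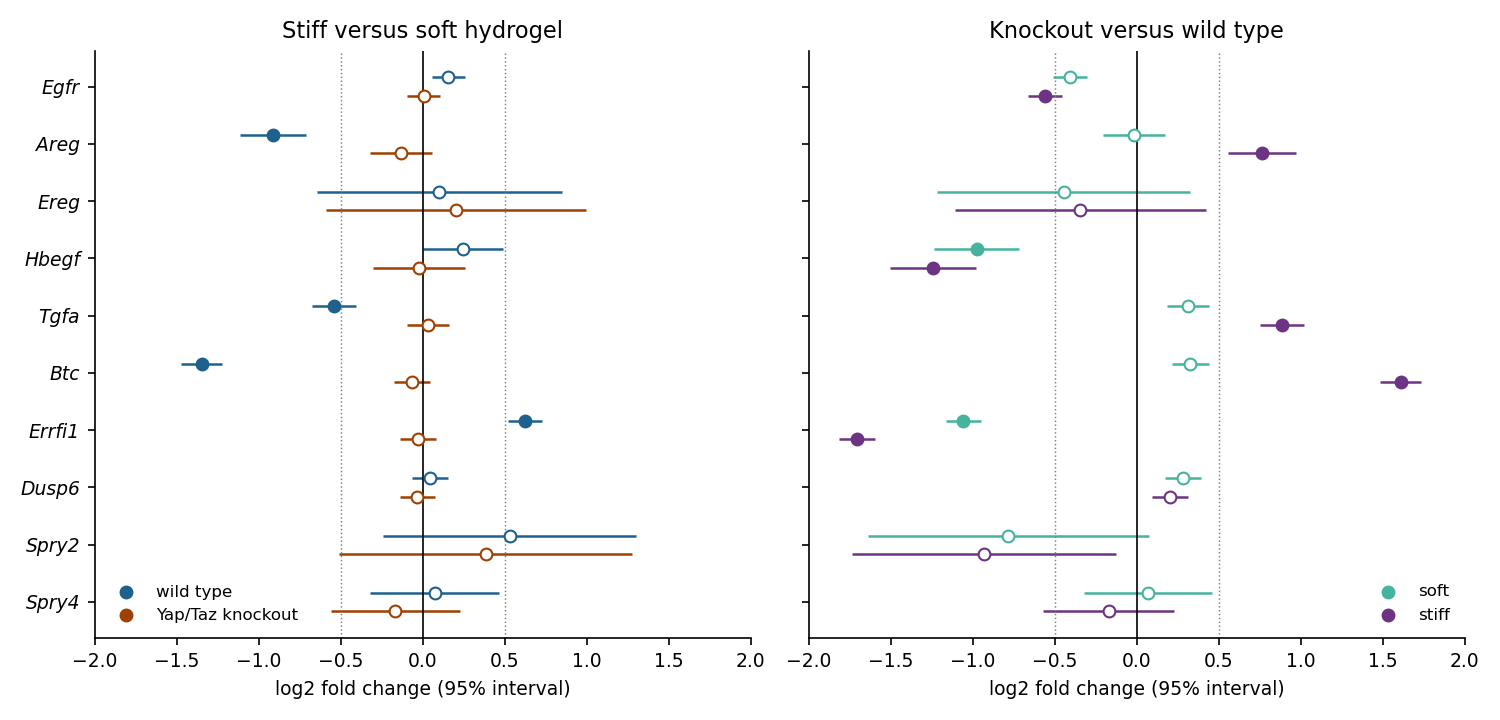
Log2 fold change of the 10 genes (horizontal axis) with 95% intervals, for stiff against soft in each genotype and for knockout against wild type on each hydrogel, where filled points passed the thresholds and open points did not. Btc, Areg and Tgfa lie left of 0 and Errfi1 right of 0 in wild-type cells, and in knockout cells no point for stiff against soft is filled.

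More of the 10 genes were called between the genotypes on the stiff hydrogel than on the soft. On soft, 2 were called, both lower in knockout cells (Hbegf and Errfi1), where 6.67% of all genes were called, 2.02% higher and 4.65% lower. On stiff, 6 were called, 3 higher (Btc, Tgfa and Areg) and 3 lower (Egfr, Hbegf and Errfi1), where 28.7% of all genes were called, 13.7% higher and 15.0% lower. Btc was 3.05-fold higher in knockout cells on stiff (log2 fold change 1.61, adjusted p = 9.09e-14 by edgeR's quasi-likelihood test), Tgfa 1.85-fold (0.88, adjusted p = 1.36e-09) and Areg 1.70-fold (0.76, adjusted p = 2.85e-06). On soft, Btc (0.33) and Tgfa (0.31) were higher in knockout cells with adjusted p-values of 2.13e-04 and 0.00121 by edgeR but under the fold threshold, and Areg differed by -0.02 (interval -0.21 to 0.17). The medians of the 10 genes were -0.21 on soft and -0.26 on stiff, beside -0.00031 and 0.011 over all genes. These comparisons share libraries with those of stiffness and are not independent of them.

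Added together per length, the 5 ligand genes came to 49.8 and 51.5 CPM per kb in wild-type cells on soft and 28.7 and 29.6 on stiff. They came to 55.5 and 54.7 CPM per kb in knockout cells on soft and to 53.3 and 52.6 on stiff, so the stiff wild-type libraries stood well below the other 6. The makeup of the sum differed too. Btc made up 29.9% ± 1.17 of it in wild-type cells on soft and 20.4% ± 0.909 on stiff (SD, n = 2), while Hbegf made up 7.25% ± 0.675 and 14.8% ± 0.376. In knockout cells Hbegf was 3.38% ± 0.275 of the sum on soft and 3.46% ± 0.413 on stiff (SD, n = 2). Relative to Egfr, the ligand sum was 3.70 and 3.59 in wild-type cells on soft, 1.85 and 1.92 on stiff, 5.31 and 5.22 in knockout cells on soft and 4.99 and 5.08 on stiff. The ratio of Errfi1 to Egfr per length followed another order, with 6.65 and 5.93 in wild-type cells on soft, 8.69 and 8.68 on stiff, and 3.73 to 4.21 in the knockout libraries. These sums, shares and ratios are levels of RNA that depend on the gene lengths used, and they carry no test.

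**Figure D3:**
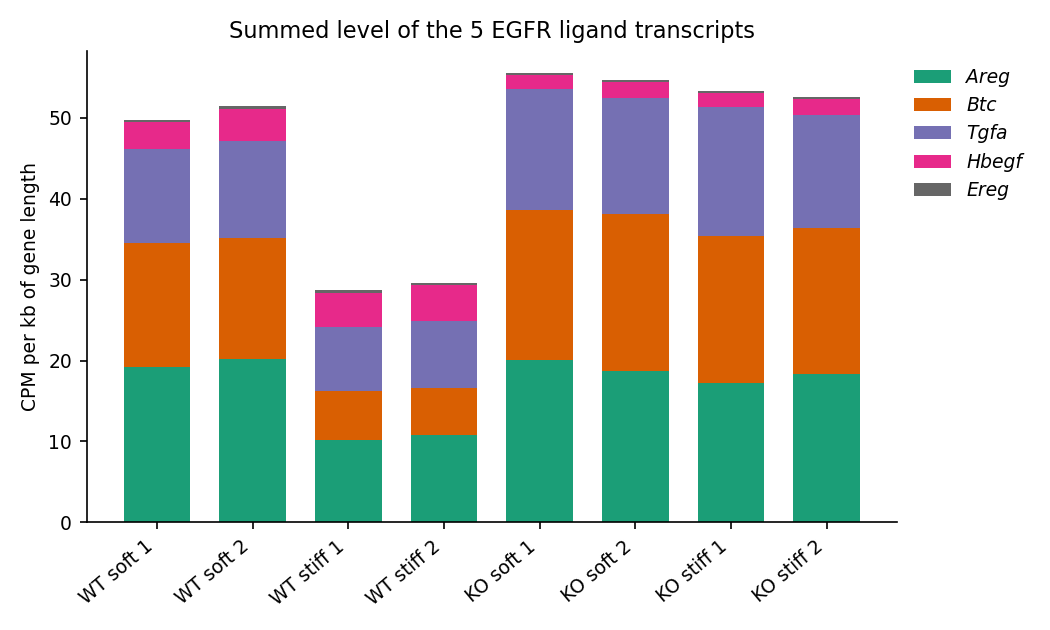
Summed level of the 5 ligand genes in CPM per kb (vertical axis, from 0) in each of the 8 libraries, stacked by gene. The wild-type libraries on stiff reach 28.7 and 29.6, and the other 6 libraries lie between 49.8 and 55.5.

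The rest of the pathway was read from 54 further genes, of which 48 were tested. In wild-type cells 15 of them changed on stiff, 9 rising and 6 falling, with a median log2 fold change of -0.0088 and with 19.3% of all genes called. In knockout cells 0 of 48 changed by edgeR's quasi-likelihood test, 6 had an unadjusted p under 0.05 (1077 of 14279 over all genes), and the median was 0.02. The stiffness effect differed between the genotypes for 14 of the 48, 6 upward and 8 downward, beside 16.8% of all genes. Between the genotypes, 12 were called on soft (2 higher and 10 lower in knockout cells, median -0.07, with 6.67% of all genes called) and 22 on stiff (7 higher and 15 lower, median -0.10, with 28.7% of all genes called). Erbb4, Egf, Epgn, Nrg2 and Nrg3 had at most 9 counts in any library and were not tested, with Nrg3 at 0 in all 8. Spry3 was not analysed here.

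Among the other ERBB receptors, Erbb2, the partner receptor without a ligand of its own, rose in wild-type cells from 2.35 and 2.78 CPM on soft to 9.16 and 8.69 on stiff (log2 fold change 1.81, adjusted p = 7.94e-06 by edgeR's quasi-likelihood test). It was at 1.60 and 1.09 CPM in knockout cells on soft and at 1.26 and 0.544 on stiff, and the effects differed by -2.39 (adjusted p = 3.07e-04 by edgeR). Erbb2 overlaps Mien1, a gene of the opposite strand with 311 counts per library on average against 11 to 190 for Erbb2, and how strand entered the counting is not given in the sources used here. Erbb3, a receptor of neuregulins, fell in wild-type cells from 113 and 112 CPM to 64.8 and 71.6 (log2 fold change -0.72, adjusted p = 4.87e-09 by edgeR), and was at 123 to 138 CPM in the knockout libraries. Erbb2 and Erbb3 thus moved in different directions with stiffness in wild-type cells.

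Of the neuregulin ligands, Nrg1 had 42.6 and 41.9 CPM in wild-type cells on soft, 56.2 and 55.5 on stiff, and 8.90 to 12.2 in the knockout libraries. It was lower in knockout cells by 1.93 on the log2 scale on soft and by 2.54 on stiff (adjusted p = 8.52e-11 and 2.44e-13 by edgeR's quasi-likelihood test). Nrg4 fell in wild-type cells from 17.4 and 20.4 to 9.26 and 7.11 CPM (log2 fold change -1.20, adjusted p = 2.50e-06 by edgeR), and its gene overlaps Fbxo22 (1968 counts on average, opposite strand). In the list of ligand shedding genes, 1 of 4 changed in wild-type cells, where 19.3% of all genes changed. That gene, Rhbdf1, encodes an inactive rhomboid protein that acts on ADAM17. Rhbdf1 rose by 0.60 on the log2 scale and was lower in knockout cells on both hydrogels (-0.77 and -1.16). Adam10 and Adam17, the metalloproteases themselves, were in the same list and were not called in any comparison.

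Between the receptor and ERK, 1 of 9 adaptors and turnover genes changed with stiffness in wild-type cells, where 19.3% of all genes changed. The ubiquitin ligase gene Cblc fell by 0.65 on the log2 scale (adjusted p = 1.19e-05 by edgeR's quasi-likelihood test). It had 29.9 and 34.0 CPM on soft and 21.2 and 19.4 on stiff, against 34.0 to 39.6 in the knockout libraries, and the effects differed by 0.76 (adjusted p = 1.19e-04 by edgeR). Sos2, a RAS exchange factor, differed between the genotypes in its stiffness effect by 0.5006 (SE 0.14, adjusted p = 0.0127 by edgeR), just over the fold threshold. Its stiffness difference was not called in wild-type (-0.38) or in knockout cells (0.12). On stiff, the phosphatase gene Ptpn11 was lower (-0.79) and Map2k2, the gene of MEK2, higher (0.65) in knockout than in wild-type cells.

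The further feedback inhibitors changed in both directions in wild-type cells, 4 of 12 rising and 2 falling, where 10.0% of all genes rose and 9.26% fell. Dusp4, a phosphatase of ERK in the nucleus, fell from 28.5 and 35.4 CPM to 9.31 and 10.3, a log2 fold change of -1.70 (adjusted p = 8.74e-10 by edgeR's quasi-likelihood test). It was at 47.8 to 57.4 CPM in the knockout libraries, and on stiff it was 5.48-fold higher there than in wild-type cells (log2 fold change 2.46, adjusted p = 1.30e-12 by edgeR). Spry1, a Sprouty gene, rose from 1.69 and 1.17 CPM to 4.0 and 3.71 in wild-type cells (log2 fold change 1.40, adjusted p = 0.00247 by edgeR) and had 4 to 10 counts in the knockout libraries. Spred3, of a family related to Sprouty, rose by 1.02 in wild-type cells, and its stiffness effect differed between the genotypes by -0.87. That of Dusp7, a phosphatase of cytoplasmic ERK, differed by -1.19. Dusp5, another phosphatase of nuclear ERK, was lower in knockout cells on soft (-0.73) and on stiff (-1.49). Dusp4 thus stood opposite to Errfi1 and Spry1, and Dusp5 on their side.

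Of 9 genes known to respond to ERK, 3 were called higher in wild-type cells on stiff and 0 lower, where 10.0% of all genes rose and 9.26% fell. The list median was 0.44, with 6 genes above 0 and 3 below it. Egr1 was lower by 0.31 on the log2 scale (adjusted p = 5.12e-05 by edgeR's quasi-likelihood test), under the fold threshold. Fosl1 (-0.20) and Etv5 (-0.13) did not pass the adjusted p. Ccnd1, the gene of cyclin D1, rose from 18.5 and 21.3 to 68.6 and 70.8 CPM (log2 fold change 1.81, adjusted p = 9.02e-12 by edgeR's quasi-likelihood test) and was at 7.45 to 8.65 CPM in the knockout libraries. Ccnd1 overlaps LTO1 (296 counts on average, opposite strand). Ier3, an immediate early gene, rose from 111 and 110 to 210 and 210 CPM (log2 fold change 0.93, adjusted p = 1.62e-11 by edgeR), against 106 to 110 CPM in the knockout libraries. The stiffness effects differed between the genotypes for Ccnd1 (-1.89), Ier3 (-0.91) and Phlda1 (-0.51), a pleckstrin homology-like domain gene. Epha4, an ephrin receptor gene at 0.578 to 2.64 CPM in the wild-type libraries, rose by 1.46. Between the genotypes, 5 of the 9 were called on soft (6.67% of all genes), 1 higher and 4 lower in knockout cells, and 6 on stiff (28.7% of all genes), all lower. Epha2, another ephrin receptor gene, was among them on soft (-0.81) and on stiff (-1.09). So was Fosl1, a component of AP-1, on soft (-1.02) and on stiff (-0.68). Fosl1 overlaps Ccdc85b (450 counts on average, opposite strand).

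**Figure D4:**
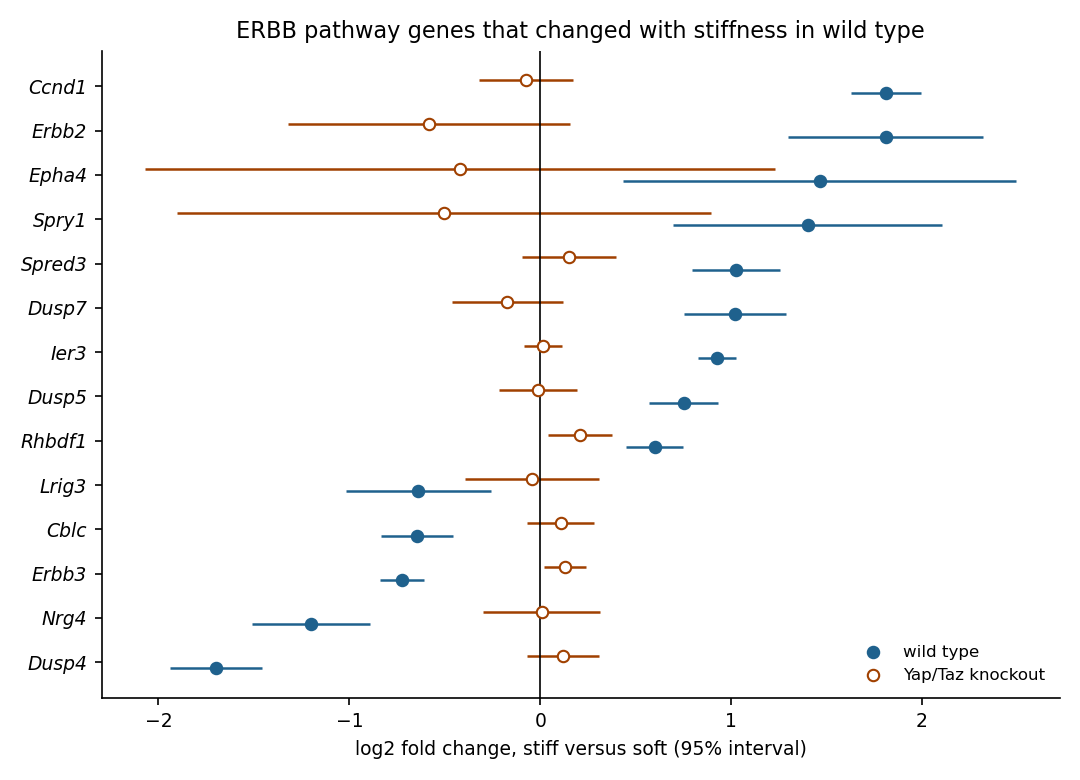
Log2 fold change on stiff against soft (horizontal axis) with 95% intervals for 14 further pathway genes called in wild-type cells, shown for wild-type and knockout cells. The wild-type points run from -1.70 for Dusp4 to 1.81 for Ccnd1 and Erbb2, and no knockout point passed the thresholds.

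Markers of other liver cells moved with the same groups. Summed over 8 endothelial genes the level was 74.5 to 76.0 CPM in wild-type cells on soft, 49.3 to 52.5 on stiff, 93.5 to 96.1 in knockout cells on soft and 94.1 to 106 on stiff. The 8 genes of Kupffer cells and macrophages came to 69.1 to 69.5, 50.6 to 53.8, 96.6 to 99.9 and 96.0 to 98.0 CPM in the same order, and the 10 genes of stellate cells and fibroblasts to 37.1 to 37.6, 24.9 to 26.8, 53.0 to 54.2 and 54.6 to 57.5. These sums were lowest in wild-type cells on stiff, as were Btc, Areg, Tgfa and Dusp4, and their part in those results was not tested. In wild-type cells on stiff, 4 of 8 endothelial, 2 of 8 macrophage and 4 of 9 tested stellate cell genes fell, and 1 stellate cell gene rose. Of all tested genes, 9.26% fell and 10.0% rose there. Lrat, a defining gene of stellate cells, had at most 4 counts in any library. The 10 hepatocyte genes summed to 100524 to 100951 CPM in wild-type cells on soft, 105071 to 106581 on stiff, 70080 to 70567 in knockout cells on soft and 69939 to 70120 on stiff. That sum was mostly Alb (81618 to 87361 CPM in the wild-type and 54501 to 55125 in the knockout libraries), and the list itself went both ways. In wild-type cells on stiff, 3 of the 10 hepatocyte genes fell (Cyp2e1 by 1.75, Hnf4a by 0.98 and Fgb by 0.60 on the log2 scale) and 1 rose, beside 9.26% and 10.0% of all genes. Between the genotypes on stiff, 2 were higher in knockout cells (Cyp2e1 by 2.79 and Hnf4a by 1.17) and 4 lower, Alb among them (-0.66). Of all genes, 13.7% were higher and 15.0% lower in that comparison. The part of the hepatocyte genes in the results was not tested. The 7 cholangiocyte genes summed to 571 to 602, 622 to 626, 365 to 367 and 341 to 351 CPM, a sum that was mostly Spp1, with Cftr at 0 in all 8 libraries. Krt19, a keratin of bile duct cells, stood apart from that sum. It rose in wild-type cells from 1.81 and 2.44 CPM on soft to 21 and 20.1 on stiff (log2 fold change 3.30, adjusted p = 1.64e-10 by edgeR's quasi-likelihood test) and was at 0.429 to 0.845 CPM in the knockout libraries, with stiffness effects that differed by -3.12. Errfi1, Erbb2 and Ccnd1 were also highest in wild-type cells on stiff, and the part in those results of the cells that hold Krt19 RNA was not tested. The 6 lymphocyte genes summed to at most 0.193 CPM, with Cd3e and Gzma at 0 in all 8. In RNA of whole cultures, fewer cells of a type and less RNA per cell cannot be told apart.

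In their pattern over the 8 libraries, the genes most like Egfr among 10037 genes with a mean of at least 100 counts were Gdf15, Irf7 and Btg2, with Pearson correlations of log2 CPM of 0.999, 0.998 and 0.998. Those most like Areg were Acsm5, Gfra1 and AW549877, with correlations of 0.996, 0.991 and 0.990. The 8 libraries fall into 4 groups, so these values describe mainly a shared order of the group levels.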

How the data were processed

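RNA of 8 libraries of mouse primary hepatocytes (2 genotypes by 2 hydrogels, 2 libraries each) was sequenced. Per the paper's methods, HISAT2 (2.0.5) mapped the paired-end reads and featureCounts assigned them to genes, and the deposited values are raw counts per gene, 1 column per library, without normalization. The paper names dUTP in cDNA synthesis, which marks strand, while the labels also allow a library without strand. The annotation release, the strand setting of the counting and the rule for reads matching several genes are not given in the sources used here.

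The tests used edgeR 4.0.16, which builds on limma 3.58.1, in R 4.3.3, and DESeq2 1.42.0 served as an alternative. Genes were filtered with filterByExpr by group and scaled by TMM (factors 0.978 to 1.02), and all 8 libraries entered a single glmQLFit with a term per group (4 residual degrees of freedom, common biological coefficient of variation 0.0542). Each of 5 contrasts used glmQLFTest, with Benjamini-Hochberg adjustment over the 14279 tested genes. Normalized CPM were divided by the gene length of the deposited table for comparisons between genes. Python 3.11.15 with matplotlib 3.10.9 drew the figures. A chi-square test of the counts of replicates over genes gave 2.62 to 5.45 per degree of freedom, above sampling noise, so no library was counted as a copy of another. The procedure was tested on simulated data.

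The 10 genes, the pathway and marker lists and the rule for named genes were chosen with earlier results of these data known. The rule names the members, the check genes, at most 3 called genes per pathway list and comparison, listed genes at 0 in all libraries, and the 3 genes most like Egfr and like Areg. The 5 pathway genes counted too low to test, the uncalled Adam10 and Adam17, Egr1 and Etv5, and the marker genes were named after their values were seen. Promoter sequences came from RefSeq. Alternatives covered the tool, scaling, filter, empirical Bayes, replicate number, fold threshold, libraries in the fit and each library left out. A gene of the pathway lists that the rule would name is not reported here, though the list counts include it.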

Additional observations from a re-analysis of the deposited data

Results flagged for a closer look

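The effect of stiffness differed between the genotypes for 4 of the 10 genes, by a test of the difference itself (edgeR's quasi-likelihood test of the interaction term, Benjamini-Hochberg adjusted). Of all tested genes, 16.8% were called in that test. On the log2 scale the effect in knockout cells minus that in wild-type cells was 1.28 for Btc, 0.78 for Areg, 0.57 for Tgfa and -0.65 for Errfi1. For each of these 4 genes both stiff wild-type libraries lay outside the range of the other 6, below it for the 3 ligands and above it for Errfi1. These genes were picked by their call in that test, which favours such a separation, so it is no separate support. The share of all genes with such a separation was not counted. No group held the 4 libraries that a test for outlying samples needs.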

How the results depend on the processing

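The values counted next leave out changes of the fold threshold, which are given further below. Of the 16 called differences of the 10 genes, 251 of 252 values under the other alternatives kept direction and call. The exception was the Tgfa interaction (0.47 without stiff knockout replicate 1). Of 34 uncalled differences, 4 of 538 values gained a call, all for Spry2 between the genotypes on stiff (-0.94 without a filter, with at least 10 counts in every library, with only the 4 libraries compared and without soft knockout replicate 1), with adjusted p-values of 0.0234 to 0.0463 by edgeR and a range over all alternatives up to 0.197. For these the cause was not tested.

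With a fold threshold of 1 on the log2 scale, 1 of the 10 genes was called for stiffness in wild-type cells, 1 for the interaction, 1 between the genotypes on soft and 3 on stiff, and 9, 6, 4 and 13 of the 48 further pathway genes. With no minimum fold, 5 of the 10 were called for stiffness in wild-type cells and 6 between the genotypes on soft. Dusp6 joined the calls between the genotypes on stiff (adjusted p = 0.00308 by edgeR's quasi-likelihood test). Of the 48 further genes, 36, 26, 20 and 34 were called, in the order above. Calls over all 14279 genes at these 2 thresholds were not counted here, so the shares given above do not apply to them. An unadjusted p under 0.05 by edgeR was held by 6854 genes for stiffness in wild-type cells and 5562 for the interaction. Between the genotypes it was held by 4233 on soft and 8015 on stiff. Without a filter on low counts, 50 of all genes were called for stiffness in knockout cells, against 3 with it.

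Uncalled values near 0 changed sign. Egfr in knockout cells was -0.0072 without a filter, -0.00011 with at least 10 counts in every library and -0.0031 in the 4 libraries alone. With 1 library left out at a time, values in wild-type cells ran from -0.083 to 0.29 for Ereg and from -0.093 to 0.23 for Spry4, and in knockout cells from -0.020 to 0.019 for Egfr, from -0.15 to 0.085 for Hbegf, from -0.073 to 0.12 for Tgfa and from -0.10 to 0.042 for Errfi1. The interactions ran from -0.094 to 0.28 for Ereg and from -0.42 to 0.12 for Spry2. Between the genotypes on soft, Areg ran from -0.071 to 0.024 and Spry4 from -0.098 to 0.20, and with library size as the only scaling Areg was 0.036.

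No pairing by replicate number was seen, since deviations of same-numbered libraries correlated between -0.14 and 0.062. Counting noise enters these deviations, so the check cannot exclude that same-numbered libraries shared a mouse. A replicate block gave 4, 0, 4, 2 and 6 calls among the 10 genes, the counts without it. Depth limits Ereg and Spry2, with at most 37 counts per library, and 2 libraries per group limit every interval. A lone library left in a group was assumed to vary like the other groups.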
